A study of Macaca fascicularis with 2 samples.

Results

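The genes described here are the T cell coreceptor genes *CD4* (ENSMFAG00000041228) and *CD8A* (ENSMFAG00000028439) and the lineage factor genes *ZBTB7B* (ENSMFAG00000042075) and *RUNX3* (ENSMFAG00000031725), 4 of the 29324 genes in the deposited list. They were taken by symbol, and each symbol matched 1 row. Beside them stand both antibody tags of the series, CD4 and CD8, so that for these coreceptors RNA and surface protein were counted in the same cells. The cells were sorted as T cells double positive (DP) for CD4 and CD8 from peripheral blood of 1 untreated cynomolgus monkey (*Macaca fascicularis*) aged 10 years. The sort used magnetic beads, first for CD4 with a kit whose label can be released, and next for CD8 on the CD4+ fraction. The cells were labelled with TotalSeq antibodies against CD4 and CD8α and run as 1 pair of libraries, a 5′ gene expression library and a tag library, on the 10x Genomics droplet platform. Both libraries share 1 list of 8953 cell barcodes and come from 1 animal, so no value has a replicate, no test across animals could be made, and all intervals cover counting error only.

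CD4 and CD8 are surface glycoproteins that bind MHC class II and class I beside the T cell receptor and bring the kinase LCK to it. CD8 is a dimer of an α chain, encoded by *CD8A*, with another α chain or with a β chain, and the tag reads the α chain. During development in the thymus, ThPOK, the product of *ZBTB7B*, holds cells in the CD4 lineage and keeps the CD8 genes off, while RUNX3 acts in the CD8 lineage, silences *CD4* and turns on *CD8A*. Most mature T cells carry only 1 of the coreceptors, and DP cells are a small part of the T cells in blood.

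Of the 8953 barcodes, 8830 had 200 to 4000 genes and at most 20% mitochondrial UMIs (unique molecular identifiers, which count captured molecules), and in these cells 31677119 UMIs of genes, 4413283 of the CD4 tag and 4685108 of the CD8 tag were counted. T cells were the 8503 kept cells with a *CD3E* UMI that were not B cells. As a background for both coreceptors, 115 B cells were used, which had at least 2 UMIs of *CD79A*, a chain of the B cell receptor, and none of *CD3E*. The remaining 212 cells fell in neither group. The median depth was 3143 gene UMIs in T cells and 4593 in B cells. RNA levels are CPM, the UMIs of a gene per 1000000 gene UMIs summed over the cells of a group. The share of cells in which a gene had any UMI is given, unless called unthinned, for cells thinned at random to 2200 UMIs. This left out 668 shallower T cells and kept 7835 T cells and all 115 B cells.

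The CD4 tag set T cells apart from B cells, while the CD8 tag did so in only some T cells. The median CD4 tag was 421 UMIs in T cells (95% interval 418 to 424) and 138 in B cells (123 to 151), a log2 ratio of 1.61. The median CD8 tag was 301 UMIs in T cells (294 to 306) and 200 in B cells (185 to 219). A mixture of 2 normal components on the log10 tag values put the threshold of the CD8 tag at 509 UMIs. For the CD4 tag both components had similar medians, 397 and 428 UMIs, and the threshold was set at 250 UMIs, the lower edge of the narrow one. T cells under the CD8 threshold had a median of 239 CD8 tag UMIs (236 to 243), a log2 ratio to B cells of 0.26, so their CD8 tag lay near that of cells that lack CD8.

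These thresholds gave 4 compartments. CD4hi CD8lo cells were the most common with 6033 cells, 71.0% of T cells, followed by 1756 CD4hi CD8hi cells (20.7%), 492 CD4lo CD8hi cells (5.79%) and 222 CD4lo CD8lo cells (2.61%). The median CD4 tag of CD4lo CD8hi cells, 106 UMIs (104 to 109), was below that of B cells, and their median CD8 tag was 1662 UMIs (1607 to 1734). In CD4hi CD8hi cells the medians were 524 CD4 tag UMIs and 738.5 CD8 tag UMIs. Depth moved with both tags. The median cell held 2983 gene UMIs in CD4hi CD8lo, 4108 in CD4hi CD8hi and 3590 in CD4lo CD8hi, and over the 8503 T cells Spearman's rho with gene UMIs was 0.30 for the CD4 tag and 0.37 for the CD8 tag, a description of cells of 1 library pair.

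**Figure D1:**
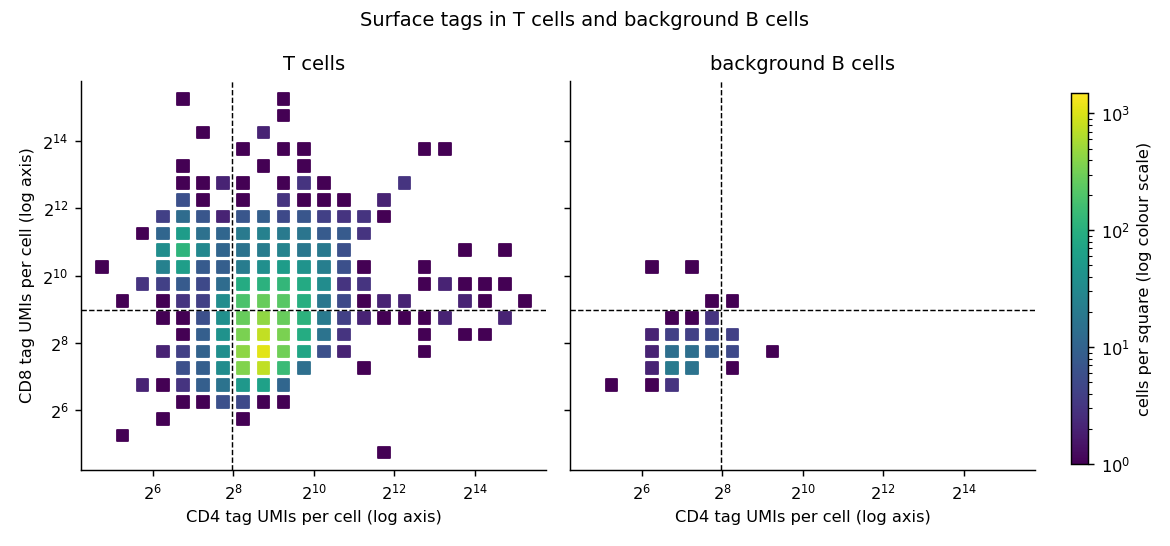
Cells by CD4 tag UMIs (x axis, log scale) and CD8 tag UMIs (y axis, log scale), with the number of cells in each square as colour on a log scale, for T cells (left) and background B cells (right), and thresholds as dashed lines. Most of the 8503 T cells lie right of the CD4 threshold of 250 UMIs and below the CD8 threshold of 509 UMIs, and the B cells centre on medians of 138 and 200 UMIs.

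*CD4* RNA was higher with the CD4 tag up to the bin from 512 to 1023 tag UMIs, with the widest step at the low end. In the 362 T cells with at least 64 and under 128 CD4 tag UMIs there was no *CD4* UMI at all among 1400312 gene UMIs, which allows up to 2.14 CPM, and 0 of 339 thinned cells, which allows a share of up to 0.885%. In the next bin, 128 to 255 tag UMIs, *CD4* RNA was 67.6 CPM (53.9 to 83.7, 375 cells). It was 107 CPM (102 to 112) from 256 to 511 tag UMIs, where 5425 of the T cells lay, and 120 CPM (113 to 127.4) from 512 to 1023. These steps of 0.67 and 0.16 on the log2 scale were both past their intervals (0.35 to 0.9996 and 0.05 to 0.27). Above that, the levels of 108 CPM (89.7 to 128, 190 cells) and 72.8 CPM (48.0 to 106, 51 cells) did not differ from that of the bin before beyond their intervals. From 256 tag UMIs upwards *CD4* RNA thus lay between 72.8 and 120 CPM while the bin medians of the tag went from 393 to 5414 UMIs and those of the depth from 2954 to 7401 gene UMIs. Below 64 UMIs, 11 T cells had 32 to 63 CD4 tag UMIs and 1 had fewer, and for the CD8 tag these were 2 and 2 cells, too few to describe.

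The B cells gave *CD4* a background of 6.67 CPM (1.82 to 17.1), from 4 UMIs, with 0 of 115 thinned cells positive, which allows a share of up to 2.61%. *CD4* RNA in CD4hi CD8lo cells, 109 CPM, was 4.03 higher on the log2 scale (2.68 to 5.91). In CD4lo CD8hi cells it was 9.34 CPM (5.54 to 14.8), a log2 ratio to B cells of 0.49 with an interval from -1.12 to 2.51, which covers 0. This level joins cells that differ. Of the 18 *CD4* UMIs, 17 lay in the 68 cells with 512 to 1023 CD8 tag UMIs, at 74.9 CPM (43.6 to 120), and in the 290 and 133 cells of the bins above were 1 and 0. Between all CD4 tag high and all CD4 tag low T cells the log2 ratio was 1.88 (1.56 to 2.23), but this value depends on where the line is drawn. With both thresholds divided by 1.5, only 8 *CD4* UMIs remained in 455 CD4 tag low cells and the log2 ratio was 4.59. With both multiplied by 1.5 it was 0.45.

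*CD8A* RNA was higher with the CD8 tag in every bin from 256 tag UMIs upwards. From 64 CD8 tag UMIs to under 128 it was 16.4 CPM (7.07 to 32.3, 180 cells), and from 128 to 255 it was 25.1 CPM (22.1 to 28.4, 3292 cells). These 2 lowest bins did not differ from each other beyond their intervals. From there every bin was above the one before, with 93.9 CPM (87.8 to 100) from 256 to 511 tag UMIs, 216 CPM (204 to 229) from 512 to 1023, 549 CPM (521 to 577) from 1024 to 2047 and 697 CPM (659 to 736) over 2047. The share of thinned cells with a *CD8A* UMI went the same way, from 0.719% in the lowest of these bins to 5.14%, 17.2%, 35.9%, 64.7% and 72.9%. The unthinned shares were 2.78%, 7.17%, 25.8%, 55.1%, 81.7% and 87.7%, while the median depth went from 2685 to 5277 gene UMIs.

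Background *CD8A* RNA in B cells was 10.0 CPM (3.67 to 21.8), from 6 UMIs, with 3.48% of thinned cells positive (0.956 to 8.67) at a median depth of 4593 UMIs. The lowest CD8 tag bin lay within it, with a log2 ratio of 0.71 and an interval from -1.01 to 2.52. T cells with 128 to 255 CD8 tag UMIs were above it by 1.33 on the log2 scale (0.18 to 2.79), although their median tag of 190 UMIs was no higher than that of the B cells. The share of these cells with a *CD8A* UMI, 5.14%, lay within the interval of the B cell share. All CD8 tag low T cells together had 57.2 CPM of *CD8A*, 2.52 above B cells (1.39 to 3.97). CD8 tag high T cells had 389 CPM, 2.76 above CD8 tag low cells on the log2 scale (2.67 to 2.86).

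**Figure D2:**
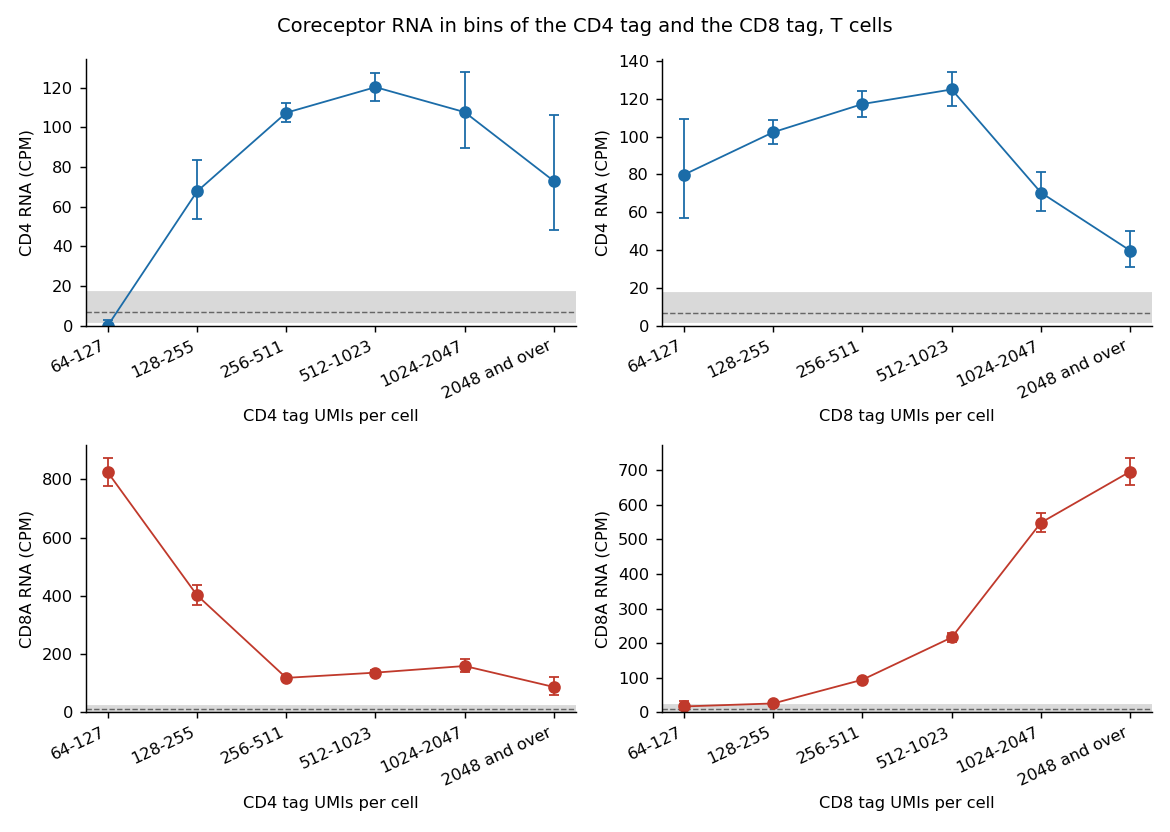
*CD4* RNA (top) and *CD8A* RNA (bottom) in CPM on linear axes, over bins of the CD4 tag (left) and of the CD8 tag (right) in T cells, with exact Poisson 95% intervals. The dashed line and grey band are the background B cells and their interval. *CD4* RNA stays between 72.8 and 120 CPM from 256 CD4 tag UMIs upwards, and *CD8A* RNA goes from 16.4 to 697 CPM with the CD8 tag.

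Read from the RNA side, the same difference appeared. Among thinned T cells, the median CD8 tag was 265 UMIs with no *CD8A* UMI (6191 cells), 520 with 1 UMI, 1003 with 2, 1680 with 3, 1754 with 4 and 2078 with 5 or more (42 cells). The share of cells over the CD8 threshold was 18.0% with no *CD8A* UMI and 51.7%, 80.4% and 95.4% with 1, 2 and 3 UMIs. For *CD4*, the median CD4 tag was 421 UMIs with no *CD4* UMI (6298 cells), 441 with 1, 466 with 2 and 431 with 3 (23 cells). Of the thinned T cells without a *CD4* UMI, 90.5% were over the CD4 threshold. Over the 7835 thinned cells Spearman's rho between RNA and tag of the same coreceptor was 0.46 for CD8 and 0.07 for CD4, the second too weak in such sparse counts to count as a finding.

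Cells in which RNA of both coreceptors was counted were few. In thinned T cells, 19.6% had a *CD4* UMI, 21.0% had a *CD8A* UMI, and 291 of 7835 cells, 3.71% (3.31 to 4.16), had both, where the product of the single shares gives 4.12%. Unthinned, 754 of 8503 T cells (8.87%) had both. The share with both depended on the compartment and was 2.16% (1.80 to 2.58) in CD4hi CD8lo, 9.56% (8.20 to 11.1) in CD4hi CD8hi and 0.633% (0.131 to 1.84) in CD4lo CD8hi cells. Within CD4hi CD8hi cells the product of the single shares was 9.15%, within the interval of the counted share. There, 42.5% of cells with a *CD4* UMI (37.5 to 47.7) and 40.2% of cells without one (37.5 to 42.9) had a *CD8A* UMI, shares that did not differ beyond their intervals.

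The 754 cells with both RNAs had a median of 472 CD4 tag UMIs and 588 CD8 tag UMIs, and 58.1% of them were CD4hi CD8hi, against 20.7% of all T cells. Of the 96 cells with at least 2 UMIs of both genes, 85.4% were CD4hi CD8hi and the other 14.6% CD4hi CD8lo, with medians of 522 and 812 tag UMIs. Their median depth was 6252 gene UMIs, against 3143 in all T cells, and the part of depth and of droplets with more than 1 cell was not tested. The 1690 cells with *CD8A* RNA only had a median of 371 CD4 tag UMIs, and 25.1% of them were CD4lo CD8hi. Of the 1721 cells with *CD4* RNA only, 0.349% were CD4lo CD8hi and 82.9% CD4hi CD8lo.

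With the CD4 tag held high, *CD8A* RNA was higher in each bin of the CD8 tag, while *CD4* RNA was low only in the last bin. Among CD4 tag high T cells, *CD8A* was 23.5 CPM under 256 CD8 tag UMIs, 92.1 from 256 to 511, 209 from 512 to 1023, 374 from 1024 to 2047 and 537 over 2047. *CD4* in the same bins was 102 and 117 CPM, then a level with an interval from 118 to 137 CPM, then 116 (99.8 to 134) and 60.4 CPM (47.4 to 75.8). The last of these held 168 cells with a median of 653 CD4 tag UMIs (547 to 706), against 645 (588 to 687) in the bin before, so there the RNA was low and the tag was not. Their median depth was 6567 gene UMIs, the highest of the 5 bins, and their median doublet score was 0.168, against 0.0928 to 0.107 in the others. Without the 6% of all cells with the highest doublet scores, which took 32.7% of this bin, *CD4* RNA in the 113 cells left was 58.8 CPM (42.8 to 79.0).

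Among CD4 tag low T cells the order was different. *CD4* RNA was 77.0 CPM (51.2 to 111) under 256 CD8 tag UMIs, 115 from 256 to 511 and 74.9 (43.6 to 120) from 512 to 1023, and then 0.946 CPM from 1024 to 2047, where 1 UMI was counted in 290 cells, and 0 UMIs in the 133 cells above, which allows up to 4.69 CPM. *CD8A* RNA in these last 2 bins was 815 CPM (761 to 871) and 1003 CPM (927 to 1084), both above CD4 tag high cells with the same CD8 tag. The median CD4 tag was 204 to 221 UMIs in the 3 bins with *CD4* RNA and 103 and 110 UMIs in the 2 without. The threshold of 250 UMIs therefore joined cells of both kinds as CD4 tag low.

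The cells with *CD4* RNA thus included CD4lo CD8hi cells near the CD8 threshold as well as the 222 CD4lo CD8lo cells. In the latter, *CD4* RNA, 93.7 CPM (71.4 to 121), differed from that of CD4hi CD8lo cells by -0.22 on the log2 scale (-0.62 to 0.15), and their *CD8A* RNA, 100 CPM (76.9 to 128), was above it by 0.84 (0.45 to 1.21). *RUNX3* RNA was above it as well, by 0.83 (0.26 to 1.35), and 24.3% of these cells lay in clusters with cytotoxic (CTL) markers, against 7.48% of CD4hi CD8lo cells. They were the shallowest compartment, with a median of 2672 gene UMIs, and the part of depth in their low tags was not tested.

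*RUNX3* RNA was higher in both CD8 tag high compartments than in CD4hi CD8lo cells, while *ZBTB7B* RNA was lower in CD4lo CD8hi cells alone. *RUNX3* RNA was 27.7 CPM (25.4 to 30.1) in CD4hi CD8lo, 51.5 (46.7 to 56.5) in CD4hi CD8hi and 98.1 CPM (84.6 to 113) in CD4lo CD8hi cells, so that the last were 1.82 above the first on the log2 scale (1.58 to 2.07). *ZBTB7B* RNA was 22.0 (20 to 24.2), 25.3 (22.0 to 29.0) and 12.5 CPM (7.98 to 18.5) in the same order. CD4lo CD8hi cells were below CD4hi CD8lo cells by 0.82 on the log2 scale (-1.48 to -0.23), a lower level that rests on 24 UMIs in 492 cells. In the top against the bottom 10% of T cells by the ratio of the CD8 to the CD4 tag, *ZBTB7B* differed by -0.21 (-0.71 to 0.29). This interval covers 0, while *RUNX3* differed by 2.02 (1.64 to 2.43). Each of these groups held 851 cells, more than the 492 CD4lo CD8hi cells, so the top group also took cells of other compartments. Under the other settings tried, the *ZBTB7B* log2 ratio between the compartments lay from -1.11 to -0.68. Between CD4hi CD8hi and CD4hi CD8lo cells the log2 ratio of *ZBTB7B* was 0.20 (-0.04 to 0.44), and of *RUNX3* it was 0.89 (0.71 to 1.08).

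Over bins of the CD8 tag from 64 upwards, *RUNX3* was 18.4, 21.0, 36.9, 50.5, 62.9 and 85.8 CPM, and each bin from 256 upwards was above the one before beyond its interval. *ZBTB7B* over the same bins was 20.5, 20.5, 23.9, 26.7, 17.2 and 19.3 CPM, with 1 step past its interval, the lower level from 1024 to 2047 tag UMIs. Over the CD4 tag, *ZBTB7B* was 9.28 CPM (4.94 to 15.9) in the bin from 64 tag UMIs and 24.95 CPM (17.0 to 35.4) from 128 to 255, and stayed between 22.0 and 27.1 CPM above that. *RUNX3* over the CD4 tag was 101 CPM (85.4 to 119.5) in the bin from 64 tag UMIs, 70.0 from 128 to 255, and between 33.3 and 37.8 CPM from 256 upwards.

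**Figure D3:**
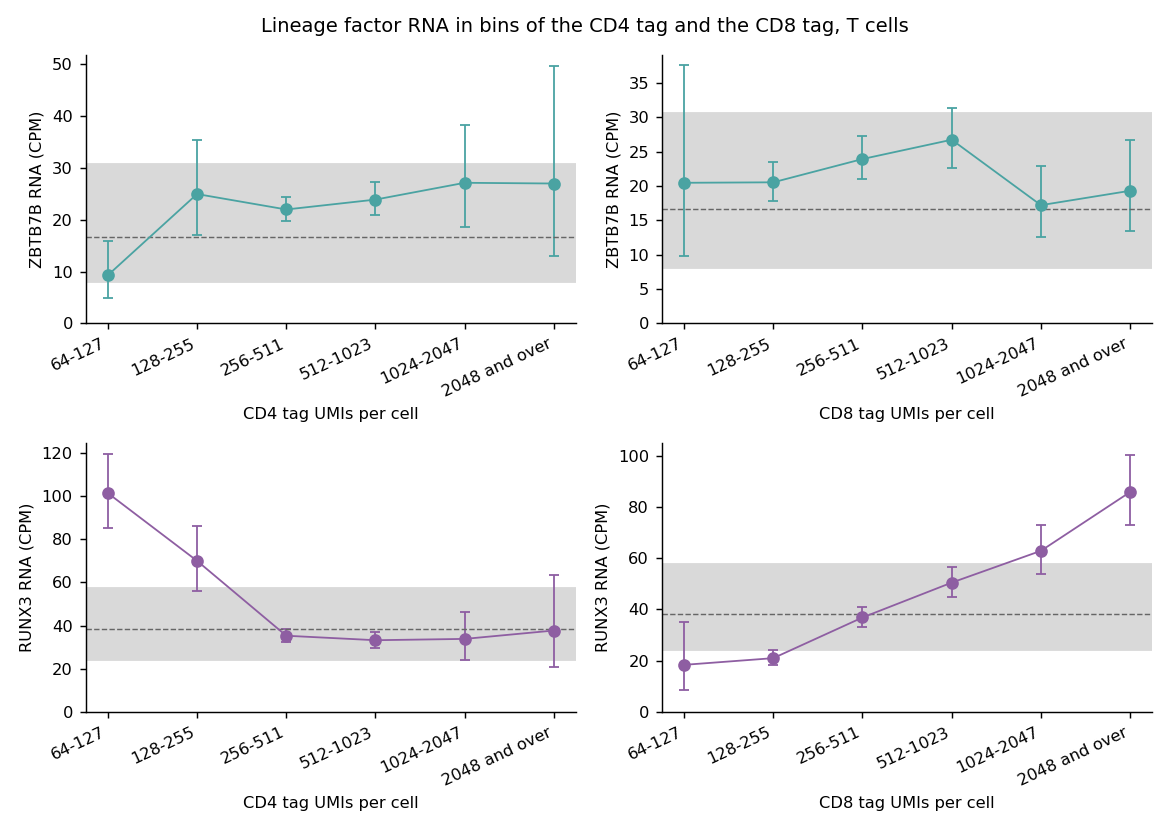
*ZBTB7B* RNA (top) and *RUNX3* RNA (bottom) in CPM on linear axes, over bins of the CD4 tag (left) and of the CD8 tag (right) in T cells, with exact Poisson 95% intervals, and background B cells as the dashed line and grey band. *RUNX3* goes from 18.4 to 85.8 CPM with the CD8 tag, and *ZBTB7B* is lowest in the lowest bin of the CD4 tag at 9.28 CPM.

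For these factors B cells were not a background free of the RNA. The source of the RNA counted in them was not tested. *RUNX3* was 38.4 CPM (24.3 to 57.6) and *ZBTB7B* 16.7 CPM (8 to 30.7) in B cells, and all T cells together differed from B cells by 0.03 (-0.56 to 0.69) and 0.42 (-0.46 to 1.49) on the log2 scale. Of thinned T cells, 7.40% had a *RUNX3* UMI and 4.84% a *ZBTB7B* UMI, against 7.83% and 0.870% of B cells. The unthinned shares were 11.4% and 7.56% of T cells and 16.5% and 8.70% of B cells. Only 33 of 7835 thinned T cells had both, 0.421% (0.290 to 0.591), and the product of the single shares was 0.358%. A *CD8A* UMI was counted in 32.9% of thinned T cells with *RUNX3* RNA (29.1 to 36.9) and in 20.03% of those without (19.1 to 21.0). Within each compartment, these shares did not differ beyond their intervals. They were 10.1% (6.94 to 14.2) and 10.3% (9.45 to 11.1) in CD4hi CD8lo cells. In CD4hi CD8hi cells they were 46.02% (38.5 to 53.7) and 40.1% (37.6 to 42.6). The shares were 82.8% (73.6 to 89.8) and 74.8% (70.1 to 79.1) in CD4lo CD8hi cells. In CD4lo CD8lo cells they were 20% (4.33 to 48.1) and 16.6% (11.01 to 23.5).

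Against all genes, the coreceptor RNAs were among the most different ones between CD4lo CD8hi and CD4hi CD8lo cells. Of 9450 genes with at least 50 UMIs in both together, 5.16% were at least 2-fold higher in CD4lo CD8hi cells and 5.46% at least 2-fold lower. Of the 4 genes 2 passed 2-fold upwards and 1 downwards. *CD8A* ranked 15th from the highest log2 ratio, at 3.88 (3.77 to 3.996), and *CD4* ranked 4th from the lowest, at -3.55 (-4.31 to -2.89). *RUNX3* ranked 167th from the highest and *ZBTB7B* 770th from the lowest, so *ZBTB7B* did not reach 2-fold. Between CD4hi CD8hi and CD4hi CD8lo cells, 4.76% of 9872 genes were at least 2-fold higher and 1.26% at least 2-fold lower in the first. Of the 4 genes only *CD8A* passed 2-fold there, at 2.37 (2.26 to 2.47), and *CD4* differed by 0.07 (-0.04 to 0.18).

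Of 9 genes listed for the CD4 lineage, 8 had at least 50 UMIs between CD4lo CD8hi and CD4hi CD8lo cells. Of these, 5 were at least 2-fold lower in CD4lo CD8hi cells and 0 higher. Over all genes tested these shares were 5.46% and 5.16%. The median log2 ratio was -1.35 for the list and 0.02 over all genes tested. *CD40LG*, the helper ligand that activates B cells, was 12.5 against 71.0 CPM, a log2 ratio of -2.51 (-3.16 to -1.93). *CD28*, the costimulatory receptor, had a log2 ratio of -1.93, and *LEF1*, *SATB1* and *TCF7*, nuclear factors that are also high in naive T cells, had log2 ratios of -1.65, -1.46 and -1.24. *GATA3*, which acts upstream of *ZBTB7B* in the thymus, was at -0.99 (-1.29 to -0.71). Of CD4lo CD8hi cells 29.3% lay in naive-like clusters of gene expression, and of CD4hi CD8lo cells 73.0%, and the part of this difference in the list was not tested. Between CD4hi CD8hi and CD4hi CD8lo cells 1 of the 8 genes, *LEF1* at -1.02, was at least 2-fold lower, against 1.26% of all genes tested. *CD40LG* differed there by 0.09 (-0.05 to 0.22).

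All 8 genes listed for the CD8 lineage were at least 2-fold higher in CD4lo CD8hi than in CD4hi CD8lo cells. Over all genes tested 5.16% were, and the median log2 ratio was 2.89 for the list and 0.02 for all. The list includes *CD8A* and *RUNX3* themselves. *ZNF683*, which encodes the residency and effector factor Hobit, was 21.8 against 0.869 CPM, a log2 ratio of 4.65 (3.80 to 5.56). *CRTAM*, an adhesion receptor of cytotoxic cells, stood at 3.75 and *KLRK1*, the activating receptor NKG2D, at 3.36. The effector factors *TBX21*, *PRDM1* and *EOMES* were at 2.43, 2.03 and 1.43. In CD4hi CD8hi against CD4hi CD8lo cells 7 of the 8 passed 2-fold, with a median of 1.57, and *RUNX3* at 0.89 was the exception. Of all genes tested 4.76% were at least 2-fold higher there, with a median log2 ratio of 0.05. CTL-like clusters held 55.9% of CD4lo CD8hi, 28.0% of CD4hi CD8hi and 7.48% of CD4hi CD8lo cells, and the part of this in the list was not tested. *TBX21*, *ZNF683*, *CRTAM* and *KLRK1* are also among the CTL markers that named these clusters.

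Of 13 genes for regulators that act at the coreceptor loci, 1 was at least 2-fold higher in CD4lo CD8hi cells, *RUNX2* at 1.45 (0.70 to 2.14), and 1 at least 2-fold lower, *RUNX1* at -1.90 (-2.71 to -1.19), with a list median of 0.09. These counts were near the shares over all genes, 5.16% and 5.46%. *RUNX2* rests on 22 and *RUNX1* on 16 UMIs in CD4lo CD8hi cells, so no pattern over the RUNX genes is read from them. *CBFB*, the partner that all RUNX proteins bind, differed by -0.06 (-0.46 to 0.32), and the corepressors *TLE3* and *NCOR1* by 0.02 and 0.11. Of 12 genes for coreceptor and T cell receptor signalling, none reached 2-fold in either direction, with a median of 0.15, which for a list of this size is near the same shares over all genes. *LCK*, the kinase that both coreceptors bind, was 432 CPM in CD4lo CD8hi and 387 CPM in CD4hi CD8lo cells, a log2 ratio of 0.16 (0.05 to 0.26), and *FYN*, its relative, was 0.71 higher (0.42 to 0.99). Between CD4hi CD8hi and CD4hi CD8lo cells 1 of the 13 regulators was at least 2-fold higher and 0 lower, near the shares over all genes, 4.76% and 1.26%. It was *RUNX2*, better counted there with 97 and 82 UMIs, at 1.47 (1.03 to 1.91). *RUNX1* differed there by -0.45 (-0.69 to -0.21), from 190 and 605 UMIs.

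The cells were also clustered on gene expression without the tags and without the 4 genes, so that none of the latter could form a cluster by itself. This gave 16 clusters, which are compared by number. Clusters 0, 1, 2 and 11 carried all 6 markers of the naive list and are called naive-like, although cluster 1 was led by *CHI3L2* of the Eomes+ Tr1 list. Clusters 3 and 5 carried all 9 CTL markers and cluster 6 all 4 of the regulatory (Treg) list. Cluster 4 carried markers of both the Treg and the follicular helper (Tfh) list, cluster 9 those of the Th2 list but with *CCR6* of the Th17 list among its leading genes, and both go by number only. So does cluster 12, which was shallow (median 940 gene UMIs).

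*CD4* RNA by cluster ranged from 17.9 CPM (8.94 to 32.03) in cluster 11 to 169 CPM (113 to 242) in the shallow cluster 12, with the CTL-like cluster 3 at 163 CPM (149 to 178) and cluster 9 at 146 CPM next. In the naive-like clusters 0, 1 and 2 it was 90.6, 98.7 and 86.7 CPM. *CD8A* RNA was highest in the CTL-like cluster 5 at 660 CPM (626 to 695), followed by the innate-like cluster 13 at 550 CPM, cluster 11 at 454 CPM and the cycling-like cluster 14 at 425 CPM, and was lowest at 58.7 CPM (50.1 to 68.4) in cluster 2. Most of the 53 cells of cluster 13 were not among the T cells defined here. Of them 20.8% were CD4hi CD8hi, 13.2% CD4lo CD8hi, 3.77% CD4lo CD8lo and 0% CD4hi CD8lo T cells. In the order of the 16 levels, 14 of the 15 neighbouring pairs for *CD4* and 12 of 15 for *CD8A* did not differ beyond their intervals.

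Both CTL-like clusters had high *RUNX3* RNA and differed in their coreceptors. *RUNX3* was 125 CPM (113 to 138) in cluster 3 and 105 CPM (91.6 to 120) in cluster 5. Only the innate-like cluster 13, at 145 CPM (102 to 200, 53 cells, most of them not T cells as defined here), had a higher value. Cluster 3 had medians of 337 CD4 tag UMIs and 479 CD8 tag UMIs with *CD8A* at 263 CPM, and cluster 5 had 190 and 1725 tag UMIs. *ZBTB7B* was 36.8 CPM (30.4 to 44.1) in cluster 3 and 20.1 CPM (14.6 to 27.1) in cluster 5. The *ZBTB7B* level of cluster 3 did not differ from those of the clusters next in order beyond its interval.

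The naive-like cluster 11 differed from the other naive-like clusters in its tags and in both factors. Of its 147 cells 81.0% were CD4lo CD8hi, and it had medians of 107 CD4 tag UMIs and 1425 CD8 tag UMIs, while at least 84.7% of clusters 0, 1 and 2 were CD4hi CD8lo. *ZBTB7B* was 3.25 CPM (0.394 to 11.8), from 2 UMIs, in cluster 11 and 17.7, 20.9 and 26.5 CPM in clusters 0, 1 and 2. *RUNX3* was 42.3 CPM (27.6 to 62.0) in cluster 11 and 13.6, 15.9 and 13.1 CPM in the other naive-like clusters. The Treg-like cluster 6 had the next lowest *ZBTB7B* among clusters with over 100 cells and at least 1 *ZBTB7B* UMI, at 9.11 CPM (4.85 to 15.6), with a median CD4 tag of 380 UMIs, so low *ZBTB7B* RNA also occurred in cells with a high CD4 tag. Of the 15 neighbouring pairs in the order of *ZBTB7B* levels, 0 differed beyond their intervals, and for *RUNX3* 3 did.

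**Figure D4:**
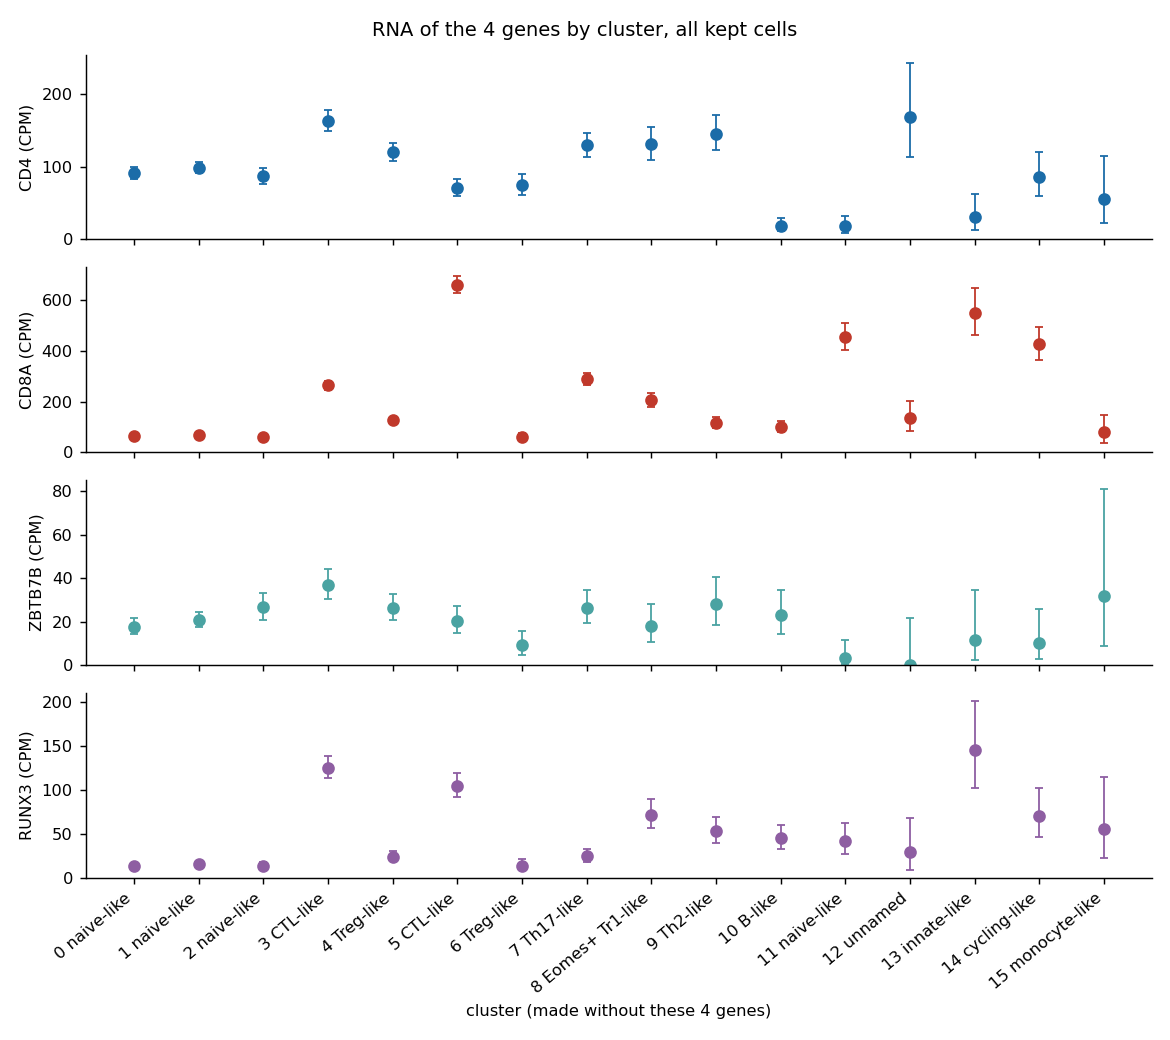
RNA of *CD4*, *CD8A*, *ZBTB7B* and *RUNX3* in CPM on linear axes in each of the 16 clusters of all kept cells, with exact Poisson 95% intervals. *CD8A* is highest in cluster 5 at 660 CPM, *RUNX3* in clusters 3, 5 and 13 at 125, 105 and 145 CPM, and *CD4* is lowest in cluster 11 at 17.9 CPM.

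Genes whose levels over the 16 clusters were most like each of the 4 were picked by Pearson's r of log2(CPM + 5) among 7925 genes with at least 200 UMIs. For *CD8A* these were *ADAMTS7* (r = 0.93), *ID2* (0.87), *KLRK1* (0.85), *COQ2* (0.81) and *CYB561D2* (0.81). For *RUNX3* they included *LY6E* (0.94), *PBDC1* (0.92), *TESC* (0.91) and *MATK* (0.91). For *CD4* they were *GFPT1* (0.86), *UBAP1* (0.84), *KLHL20* (0.83), *ETV3* (0.82) and *EXT2* (0.82), and for *ZBTB7B* they included *MAP1S* (0.88), *TRIM27* (0.87), *UBXN6* (0.86) and *IFT52* (0.86). The clusters share 1 library and differ in size and depth, and r is given as a description.

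Within clusters, *CD8A* RNA differed between CD4hi CD8hi and CD4hi CD8lo cells, and no difference of *RUNX3* RNA between these compartments past its interval was seen. CD4hi CD8hi and CD4hi CD8lo cells each numbered at least 20 in 10 clusters. *CD8A* was higher in CD4hi CD8hi cells in 10 of 10, with intervals above 0 in all 10 and log2 ratios from 1.24 in cluster 3 to 2.48 in cluster 2. *RUNX3* was higher in 5 and lower in 5, from -1.49 to 0.50, and its interval covered 0 in all 10. Some of these intervals were wide. CD4hi CD8hi cells of clusters 0, 2 and 6 held 3, 2 and 4 *RUNX3* UMIs, with intervals of -3.81 to 0.12, -3.30 to 1.78 and -1.62 to 2.05. In cluster 3, where it was best counted, *RUNX3* was 119 CPM in CD4hi CD8hi and 124 CPM in CD4hi CD8lo cells, a log2 ratio of -0.06 (-0.38 to 0.25), while *CD8A* was 344 and 146 CPM. In cluster 5 the ratio of *RUNX3* was 0.41 (-0.36 to 1.28). *ZBTB7B* had intervals that covered 0 in all 10 clusters too. For *CD4* they covered 0 in 7, lay below 0 in clusters 4 and 5, and lay above 0 in cluster 8 at 0.73 (0.22 to 1.24). Without the 6% of cells with the highest doublet scores 9 clusters had enough cells, with *CD8A* intervals above 0 in 9 and *RUNX3* intervals above 0 in 0.

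Summed over the 10 clusters, the UMIs of CD4hi CD8hi cells were set against those that the CD4hi CD8lo level of each cluster would give, with the latter number taken as fixed. For *RUNX3*, 388 UMIs were counted and 388 given by these levels (log2 ratio -0.15 to 0.14), of which the level in cluster 5 rests on 16 UMIs in 46 cells. For *CD8A*, 2177 UMIs were counted against 606, a log2 ratio of 1.85 (1.78 to 1.91). *ZBTB7B* had 197 counted against 205 (-0.27 to 0.14 on the log2 scale). *CD4* had 914 counted against 1112, with clusters in both directions, a log2 ratio of -0.28 (-0.38 to -0.19). Its level in cluster 5 rests on 47 UMIs in the same 46 cells, of which 63.04% were among the cells with the highest doublet scores. Without such cells the *CD4* interval in cluster 5 covered 0 (-1.79 to 1.09), and their part in the sum was not tested. The clusters were made from other genes of the same cells.

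**Figure D5:**
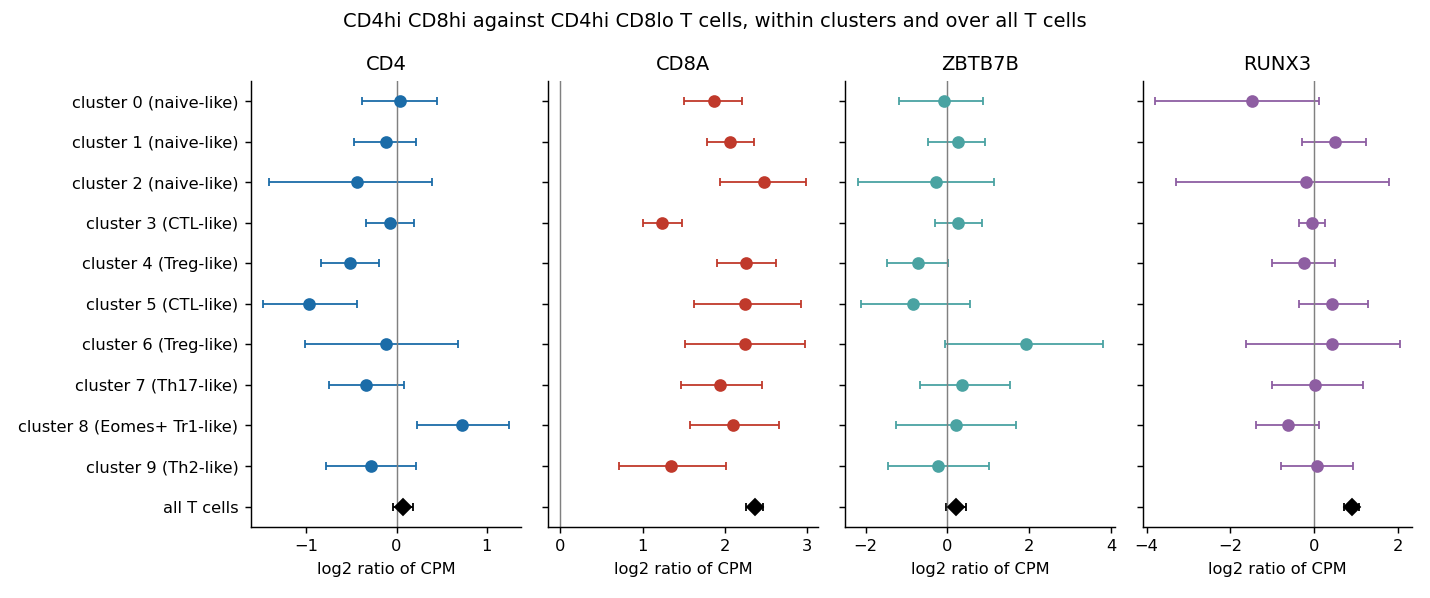
Log2 ratio of CPM, CD4hi CD8hi against CD4hi CD8lo T cells, for each of the 4 genes within the 10 clusters with at least 20 cells of both, and over all T cells (black diamond), with exact 95% intervals. All 10 intervals lie above 0 for *CD8A* and all 10 cover 0 for *RUNX3*, whose ratio over all T cells is 0.89.

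Only the CTL-like clusters 3 and 5 held at least 20 cells each of CD4lo CD8hi and CD4hi CD8lo cells. In cluster 3, *CD4* was 68.1 CPM (34.0 to 122) in 51 CD4lo CD8hi cells and 170 CPM in 405 CD4hi CD8lo cells, a log2 ratio of -1.32 (-2.34 to -0.46). The median CD4 tag of these CD4lo CD8hi cells was 209 UMIs. *CD8A* was above CD4hi CD8lo cells by 2.31 (1.97 to 2.64), and *RUNX3* differed by 0.43 (-0.21 to 1.02). *ZBTB7B* was 6.19 CPM, from 1 UMI, against 41.4 CPM in CD4hi CD8hi cells (-8.07 to -0.21 on the log2 scale) and 34.6 CPM in CD4hi CD8lo cells (-7.81 to 0.06).

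In cluster 5, *CD4* was 1.19 CPM, from 1 UMI in 224 cells, in CD4lo CD8hi cells, 99.0 CPM (80.8 to 120) in 157 CD4hi CD8hi cells and 193 CPM (142 to 257) in 46 CD4hi CD8lo cells. *CD8A* went the other way, with 1119, 429 and 90.4 CPM. *RUNX3* was 139 CPM (115 to 167), 87.5 (70.4 to 107) and 65.7 CPM (37.6 to 107), so that CD4lo CD8hi cells were above CD4hi CD8lo cells by 1.08 on the log2 scale (0.32 to 1.93). Depth and doublet score moved with these compartments. The median depth was 3294, 6229 and 6019 gene UMIs and the median doublet score 0.0435, 0.322 and 0.287 in the same order, and the 6% of all cells with the highest scores took 4.46%, 74.5% and 63.04% of them.

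Without those high-score cells, cluster 5 kept 214 CD4lo CD8hi, 40 CD4hi CD8hi and 17 CD4hi CD8lo cells. *CD4* was then 0 UMIs, 71.8 CPM and 96.9 CPM in this order, and *CD8A* was 1162, 647 and 111 CPM. CD4lo CD8hi cells were then still above CD4hi CD8lo cells in *CD8A*, by 3.39 (2.41 to 4.61), while the interval for *CD4* between CD4hi CD8hi and CD4hi CD8lo cells covered 0 (-1.79 to 1.09). *RUNX3* was 145, 135 and 111 CPM, a log2 ratio of CD4lo CD8hi to CD4hi CD8lo cells of 0.38 (-0.64 to 1.63). The last level rests on 8 UMIs in the 17 cells. This interval covers both 0 and the ratio of 1.08 with all cells, so it cannot tell whether the difference of *RUNX3* held. The *ZBTB7B* levels in cluster 5, 19.0, 18.3 and 32.9 CPM with all cells, gave a log2 ratio of -0.79 (-2.10 to 0.64) from 16 and 8 UMIs. In cluster 3, 1, 12 and 9 cells were left out in the same way, and *RUNX3* differed by 0.40 (-0.26 to 0.99).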

How the data were processed

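Per the labels and methods, the authors ran Cell Ranger 3.1.0, which aligns by STAR (2.5.1b), on the genome of *Macaca fascicularis*, and deposited raw counts of UMIs for every gene, tag and barcode, with no scaling. Barcodes were filtered by the limits of the study, which used Seurat 3.1.3. They kept 8830 of 8953 barcodes here, more cells than the study states. The median T cell held 3143 gene UMIs. With no replicates, only counting intervals at 95% are given: exact Poisson for CPM, exact binomial for shares and for ratios, and order statistics for medians. PCR and capture error are not in them. Where a count was 0, the limit is 3 counts. Genes between compartments were compared with UMIs under 3 set to 3. The 4 genes, the lists and the rules were chosen with earlier results of these data known. Named genes are the 4 genes, those of the 4 lists, and the 5 most like each gene, of which 2 are not reported here. The CD4 tag threshold was changed after the mixture had failed to separate its components.

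Clustering used Seurat 5.3.0 in R 4.3.3 (log-normalization to 10000, 2000 variable genes, 20 components, resolution 0.8). A name needed at least 3 markers at 1.5 times the median over clusters. Scrublet in scanpy 1.11.5 called 0 doublets, so none were removed, and its scores served only to leave out the 6% of cells with the highest. Other steps used scikit-learn 1.9.0, scipy 1.17.1 and numpy 2.4.6 in Python 3.11.15, and the steps were tested on simulated data. No gene coordinates or sequences are printed, because no genome of the authors' build was used here. *CD8B* and *HDAC1* were listed and not analysed here. Other filters, thresholds, depths, B cell definitions, thinning and clusterings were tried, and 2 alternatives, CD4 tag low as under 128 UMIs and no T cells from the B-like, monocyte-like and unnamed clusters, as well as the counts of clusters and the levels in clusters 3 and 5 under other settings, were added after seeing the data.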

Additional observations from a re-analysis of the deposited data

Results flagged for a closer look

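Both tags were high on barcodes that the filter removed. The 71 barcodes with under 200 genes had medians of 748 CD4 tag UMIs (625 to 911) and 947 CD8 tag UMIs (797 to 1178), above the medians of background B cells, 138 and 200, and of T cells, 421 and 301. No UMI of *CD4* or *CD8A* was counted on any of the 71, and their median depth was 774 gene UMIs. Together they held only 62457 gene UMIs, so these zeros limit the RNA level only loosely. Of these barcodes 34 also had over 20% mitochondrial UMIs.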

How the results depend on the processing

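Of 122 values recomputed under other settings, for 16 results, 105 stayed within the interval of the value given, or within 1.5 times a count, and 3 changed direction. Some of the 105 could not change under their setting. The share of T cells with both RNAs and the CD4 tag of T cells against B cells use no tag threshold. With both tag thresholds divided by 1.5, the log2 ratio was 4.59 for *CD4* RNA by the CD4 tag, 2.999 for *CD8A* RNA by the CD8 tag, 0.0704 for the CD8 tag of CD8 tag low T cells against B cells, and -0.54 for *CD4* RNA in CD4 tag low cells against B cells, from 8 and 4 UMIs, where it had been 2.17. With both multiplied by 1.5 it was 0.45 for *CD4* RNA by the CD4 tag and 0.40 for the CD8 tag against B cells. With the top and bottom 10% of cells by the tag it was 1.48 for *CD4* and 5.78 for *CD8A* RNA by the own tag, -0.21 for *ZBTB7B*, 0.17 for *CD8A* RNA against B cells and -0.49 for the CD8 tag against B cells. With CD4 tag low as under 128 UMIs, *CD4* RNA by the tag was 7.28, with 1 UMI in 374 cells, and against B cells -3.25. With 2200 to 5000 gene UMIs, *CD8A* by the CD8 tag was 2.94. Without thinning, 8.87% of T cells had both RNAs. At resolution 0.4 the highest *CD8A* level of a cluster was 550 CPM, and 6 of 6 clusters had *CD8A* higher in CD4hi CD8hi cells. The cause of these changes was not tested beyond the settings themselves. The interval of *RUNX3* lay above 0 in 0 clusters under each of the 6 other settings tried. Between compartments 1004 genes passed 2-fold (488 higher, 516 lower), and 695 (522 higher, 173 lower) with the top and bottom 10%. RNA and tags were paired by cell, and no paired analysis across animals was possible because both libraries are of the same cells of 1 animal. Depth limits *CD4* (18 and 4 UMIs) and *ZBTB7B* (24 and 10 UMIs) in CD4lo CD8hi and B cells.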
